A study of Mus musculus with 19 samples.

Results

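The genes described here were 8 genes of cholesterol synthesis and its control, Hmgcs1, Idi1, Fdps, Sqle, Lss, Cyp51, Insig1 and Srebf2, measured in the lungs of mice dosed with a mixture of polycyclic aromatic hydrocarbons (PAHs). They were chosen by symbol, and every array probe whose RefSeq accession maps to one of the symbols was taken, which gave 9 probes for the 8 genes, of 14735 genes with a tested probe. Srebf2 had 2 probes and each other gene had 1. None of the 8 encodes a receptor for cholesterol uptake, and uptake is covered below by a separate list.

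The 18 mice were adult males of MutaMouse, a transgenic strain on a BALB/C-DBA/2 background, used for mutation assays, at about 12 weeks of age. They were given olive oil alone (D0, 5 mice) or an olive oil solution of 8 PAHs by gavage for 28 days, at 15 (D1, 4 mice), 30 (D2, 5 mice) or 60 (D3, 4 mice) mg of benzo[a]pyrene (BaP) equivalents per kg of body weight per day. The mixture held BaP, BaA, BbF, CHR, BghiP, BkF, DBahA and IP, and lungs were taken 72 h after the last dose. Each value is the log2 ratio of lung RNA (red dye) over a reference RNA pooled from mouse cell lines (green dye), so 0 means equal signal in both, and ratios of different genes are not ranked as levels. The dyes were not swapped. The arrays lay on 3 slides that each held all 4 groups, and the array position on a slide followed the dose, so position and dose cannot be told apart. Mouse 23 was labelled D2 although its number falls among those of D1, and the numbers of mice per group in the study's methods fit it there too. It was kept as labelled. The 2 arrays of mouse 35 (D3) were averaged. In bulk lung, fewer cells of a type and less RNA per cell cannot be told apart. As a check of the tissue, the mean log2 ratio of 8 alveolar type 2 markers was between 4.86 and 5.60 in every mouse.

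Cells make cholesterol from acetyl-CoA through the mevalonate pathway, whose products also feed protein prenylation and ubiquinone synthesis. When sterols in the endoplasmic reticulum run low, SCAP escorts the transcription factor SREBP2 to the Golgi, where it is cut free to enter the nucleus and switch on the genes of the synthesis enzymes. INSIG proteins hold the SCAP-SREBP complex back when sterols are plentiful. In the lung, cholesterol is a constituent of surfactant, which alveolar type 2 cells secrete, and alveolar macrophages take up and export lipid.

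The promoters of these genes are where SREBP2 acts, through sterol regulatory elements that work beside CCAAT and GC boxes, so promoter sequences (RefSeq, GRCm38.p6, 250 bases before to 50 after the start site) are shown for the gene with the most complete match, the gene past the adjusted p with loess-normalized ratios and the gene of the regulator itself. They were available for 6 of the 8 genes. Capitals mark matches on either strand to the sterol element core TCACNCCA, extended to TCACNCCAC where the ninth letter is also present, and to CCAAT, which reads ATTGG when it lies on the opposite strand. The motifs were chosen after earlier results of these data were known.
Hmgcs1 (chr13:119690101-119690400, plus strand): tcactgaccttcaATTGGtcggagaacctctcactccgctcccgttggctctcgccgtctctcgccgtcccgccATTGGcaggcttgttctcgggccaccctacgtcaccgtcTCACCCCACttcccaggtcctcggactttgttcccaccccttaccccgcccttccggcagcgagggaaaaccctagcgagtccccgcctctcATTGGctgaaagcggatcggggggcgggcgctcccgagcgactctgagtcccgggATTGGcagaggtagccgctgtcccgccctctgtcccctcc
Idi1 (chr13:8885356-8885655, plus strand): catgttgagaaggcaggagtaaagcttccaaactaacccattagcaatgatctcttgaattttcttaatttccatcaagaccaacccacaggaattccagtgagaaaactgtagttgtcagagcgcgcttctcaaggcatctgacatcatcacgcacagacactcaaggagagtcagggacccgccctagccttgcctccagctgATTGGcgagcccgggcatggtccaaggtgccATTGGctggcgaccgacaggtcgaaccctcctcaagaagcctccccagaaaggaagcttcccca
Srebf2 (chr15:82147019-82147318, plus strand): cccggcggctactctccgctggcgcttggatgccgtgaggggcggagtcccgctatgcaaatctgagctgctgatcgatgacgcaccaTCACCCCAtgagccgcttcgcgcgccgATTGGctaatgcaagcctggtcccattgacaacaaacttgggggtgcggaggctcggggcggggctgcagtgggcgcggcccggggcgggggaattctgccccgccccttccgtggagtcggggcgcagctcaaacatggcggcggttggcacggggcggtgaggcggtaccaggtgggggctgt
The longer core TCACNCCAC occurred in the Hmgcs1 promoter alone among the 6, at position -137 from the start site, and in 1.24% of all 32851 promoters of this length. The shorter core, which overlaps it, was in the promoters of Hmgcs1 and Srebf2 and in 4.36% of all promoters. In Srebf2 it lay at position -162. CCAAT was found in all 6 promoters, 4 times in that of Hmgcs1, against 37.4% of all promoters, and the GC box GGGCGG was also in all 6, against 35.7%. The E-box CACGTG was in the Insig1 promoter alone, and in 7.15% of all promoters. A match is a description of letters, and a promoter without one says nothing on binding.

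The 8 genes moved little, and with loess-normalized ratios mostly downward. Idi1 was the only one past an adjusted p of 0.05 at any dose, and it was lower at D1 (1.25-fold) and D3 (1.28-fold). At D3 all 8 genes had a lower mean than in D0, at D2 7 of 8 and at D1 5 of 8, with loess-normalized ratios. Of all probes, 50.5% were lower at D3, 51.1% at D2 and 48.3% at D1. With each array only centred on its median, which moved the median of all probes up by 0.16 at D1, 0.12 at D2 and 0.06 at D3 on the log2 scale, 0 of 8 were lower at D1 and D2 and 5 of 8 at D3. No gene reached the 1.5-fold change that was also required for a call.

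**Figure D1:**
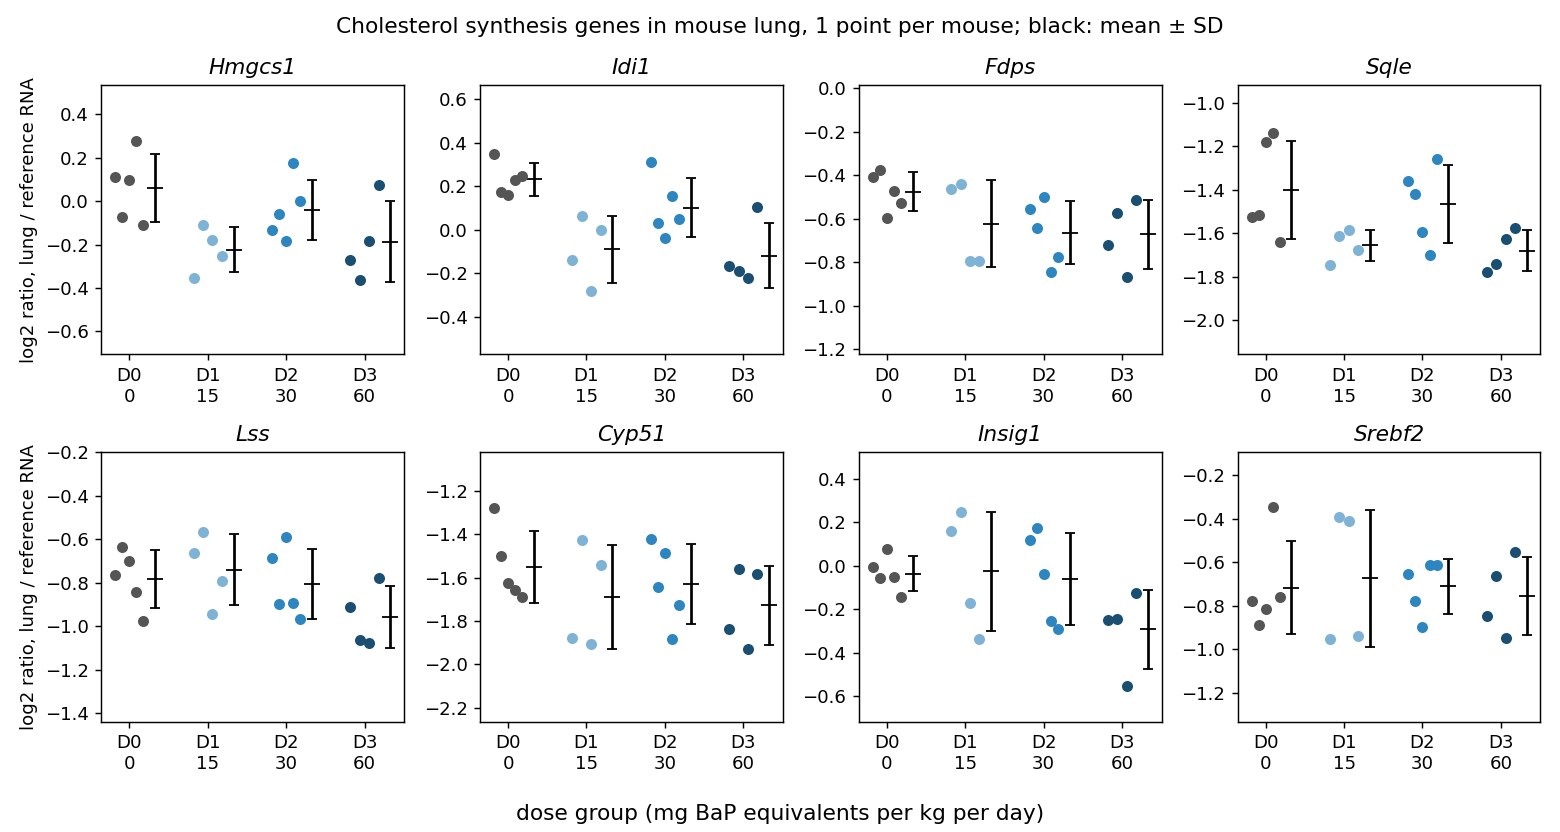
Log2 ratio of lung over reference RNA (y axis, all panels spanning the same range) for each gene by dose group in mg BaP equivalents per kg per day (x axis). Each point is 1 mouse and the black bar is the mean ± SD. Idi1 in D1 and D3 lies below all D0 mice, and most other groups overlap.

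The first gene of the series, Hmgcs1 (NM_145942; chr13:119690351-119708260), encodes the cytosolic HMG-CoA synthase, an early enzyme of the mevalonate pathway. Its log2 ratios in D0 were 0.11, -0.07, 0.10, 0.28 and -0.11 in mice 1 to 5. In D1 they were -0.35, -0.11, -0.18 and -0.25 in mice 21, 22, 24 and 25, and in D2 -0.13, -0.06, -0.18, 0.17 and 0.00 in mice 23, 26, 28, 29 and 30. In D3 they were -0.27, -0.36, -0.19 and 0.07 in mice 31, 32, 34 and 35. The D1 mice all lay below the lowest D0 mouse, by less than 0.01 for the nearest pair, while D2 and D3 overlapped with D0. The difference from D0 was -0.28 ± 0.10 (SE) at D1 (limma, adjusted p = 0.113), -0.10 ± 0.09 at D2 (adjusted p = 0.695) and -0.25 ± 0.10 at D3 (adjusted p = 0.118). At D3 the gene stayed short of the threshold in 17 of 18 fits that left out 1 mouse. Over the 18 the differences ran from -0.33 to -0.19, with an adjusted p of up to 0.307. The exception was the fit without mouse 35, the highest of D3, with -0.33 and an adjusted p of 0.0471.

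Idi1 (NM_145360; chr13:8885606-8892396) encodes isopentenyl-diphosphate isomerase, which balances the pair of five-carbon units from which all isoprenoids are built. Its log2 ratios were 0.35, 0.17, 0.16, 0.23 and 0.25 in D0, mice 1 to 5. They were -0.14, 0.06, -0.28 and 0.00 in D1, in the order of mice given above, and 0.31, 0.03, -0.04, 0.15 and 0.05 in D2. In D3 they were -0.17, -0.19, -0.22 and 0.10. All mice of D1 and D3 lay below all mice of D0, whereas in D2 mouse 23 was inside the D0 range and the other 4 below it. Idi1 fell by 0.32 ± 0.09 (SE) on the log2 scale at D1 (1.25-fold, limma, adjusted p = 0.0473) and by 0.35 ± 0.09 at D3 (1.28-fold, adjusted p = 0.0157). At D2 the difference was -0.13 ± 0.09 (adjusted p = 0.523). The D1 value lay close to the threshold and lost it in 14 of 18 fits that left out 1 mouse, with adjusted p between 0.0345 and 0.136 over the 18, and with mouse 23 placed in D1 (-0.24, adjusted p = 0.146). The D3 value stayed past it in all 18, with adjusted p between 0.00874 and 0.0495. With median centring the differences were 0.01 at D1 (adjusted p = 0.995) and -0.13 at D3 (adjusted p = 0.929).

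Of all probes, 4.74% passed the adjusted p at D1, 2.09% at D2 and 12.4% at D3, beside 1, 0 and 1 of the 8 genes, which at D3 is close to the share of all probes. Counting lower probes alone, the shares were 2.32% at D1 and 6.37% at D3. For calls that also needed 1.5-fold, the shares of all probes were 1.06%, 0.626% and 2.43%, against 0 of the 8 genes at each dose (limma); at an unadjusted p under 0.05 there were 3 of the 8 genes at D1, 0 at D2 and 3 at D3, where 19.8%, 14.7% and 26.2% of all probes had one. Groups did not overlap for Hmgcs1 and Idi1 at D1, for no gene at D2 and for Idi1 at D3, where 8.93%, 4.11% and 14.6% of all probes had groups without overlap.

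Fdps (NM_001253751; chr3:89093588-89101967) encodes farnesyl diphosphate synthase, at the branch between sterols and prenyl groups. Its log2 ratios were -0.41, -0.37, -0.60, -0.47 and -0.53 in D0 and -0.46, -0.44, -0.80 and -0.80 in D1. They were -0.55, -0.64, -0.50, -0.85 and -0.78 in D2 and -0.72, -0.58, -0.87 and -0.52 in D3. Each dose group overlapped with D0, with 2 of 4, 5 of 5 and 4 of 4 mice below the D0 mean. The differences were -0.15 ± 0.10 (SE) at D1, -0.19 ± 0.09 at D2 and -0.19 ± 0.10 at D3 (limma, adjusted p = 0.449, 0.374 and 0.229).

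Sqle (NM_009270; chr15:59315092-59331193) encodes squalene epoxidase, a rate-limiting enzyme of the sterol branch. Its log2 ratios were -1.53, -1.52, -1.18, -1.14 and -1.64 in D0 and -1.75, -1.61, -1.59 and -1.68 in D1. They were -1.36, -1.42, -1.59, -1.70 and -1.26 in D2 and -1.78, -1.74, -1.63 and -1.58 in D3. The D0 mice fell into a higher pair, mice 3 and 4, and a lower set, mice 1, 2 and 5, of which mouse 5 lay within the range of D1 and D3. The SD over mice was 0.227 in D0 but 0.0721 in D1 and 0.0948 in D3. The differences were -0.26 ± 0.11 (SE) at D1, -0.07 ± 0.10 at D2 and -0.28 ± 0.11 at D3 (limma, adjusted p = 0.186, 0.839 and 0.0968). The D3 difference stayed short of the threshold in 17 of 18 fits that left out 1 mouse. Over the 18 it ran from -0.34 to -0.22, with an adjusted p of up to 0.221. The exception was the fit without D0 mouse 5, the lowest of D0, with -0.34 (adjusted p = 0.0498).

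Lss (NM_146006; chr10:76531565-76557139) encodes lanosterol synthase, which closes the sterol ring system. Its log2 ratios were -0.76, -0.64, -0.70, -0.84 and -0.98 in D0 and -0.66, -0.56, -0.94 and -0.79 in D1. They were -0.68, -0.90, -0.59, -0.90 and -0.97 in D2 and -0.91, -1.06, -1.08 and -0.78 in D3. All dose groups overlapped with D0. The differences were 0.04 ± 0.10 (SE), -0.02 ± 0.09 and -0.17 ± 0.10 at D1, D2 and D3 (limma, adjusted p = 0.864, 0.948 and 0.290).

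Cyp51 (NM_020010; chr5:4080674-4104697) encodes lanosterol 14-alpha-demethylase, a cytochrome P450 of sterol synthesis. Its log2 ratios were -1.28, -1.50, -1.63, -1.66 and -1.69 in D0 and -1.88, -1.43, -1.90 and -1.54 in D1. They were -1.42, -1.64, -1.49, -1.88 and -1.72 in D2 and -1.84, -1.56, -1.93 and -1.59 in D3. The groups overlapped throughout, and D1 and D3 each split into a lower and a higher pair. The differences were -0.14 ± 0.12 (SE), -0.08 ± 0.12 and -0.18 ± 0.12 (limma, adjusted p = 0.588, 0.821 and 0.383).

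Neither of the 2 regulators passed the test at any dose. Insig1 (NM_153526; chr5:28071412-28078662), the sterol-sensing retention protein and itself a target of SREBP2, had log2 ratios of -0.01, -0.06, 0.08, -0.05 and -0.14 in D0 and 0.16, 0.25, -0.17 and -0.34 in D1. They were 0.12, 0.17, -0.04, -0.25 and -0.29 in D2 and -0.25, -0.24, -0.55 and -0.13 in D3. In D1 and D2 mice stood on both sides of the whole D0 range, and in D3 3 of 4 lay below it. The SD was 0.0803 in D0 and 0.274, 0.212 and 0.184 in D1, D2 and D3, a description with no test. The differences were 0.01 ± 0.12 (SE), -0.02 ± 0.12 and -0.26 ± 0.12 (limma, adjusted p = 0.980, 0.961 and 0.192), with a 95% interval of -0.52 to 0.00 at D3.

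Srebf2 (NM_033218; chr15:82147269-82205379) encodes SREBP2, whose activity is set mainly by cleavage of the protein, which an array does not read. Its brighter probe had log2 ratios of -0.78, -0.89, -0.81, -0.35 and -0.76 in D0 and -0.95, -0.39, -0.41 and -0.94 in D1. They were -0.65, -0.78, -0.90, -0.61 and -0.61 in D2 and -0.85, -0.66, -0.95 and -0.55 in D3. The groups overlapped throughout, with D0 mouse 4 far above its group. The differences were 0.04 ± 0.13 (SE), 0.01 ± 0.13 and -0.04 ± 0.13 (limma, adjusted p = 0.900, 0.991 and 0.899). The dimmer probe, with a median red signal of 151.5 against 501 for the brighter one, gave -0.13, -0.14 and -0.17 (adjusted p = 0.493, 0.517 and 0.275), so the probes differed in sign at D1 and D2 and neither passed.

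**Figure D2:**
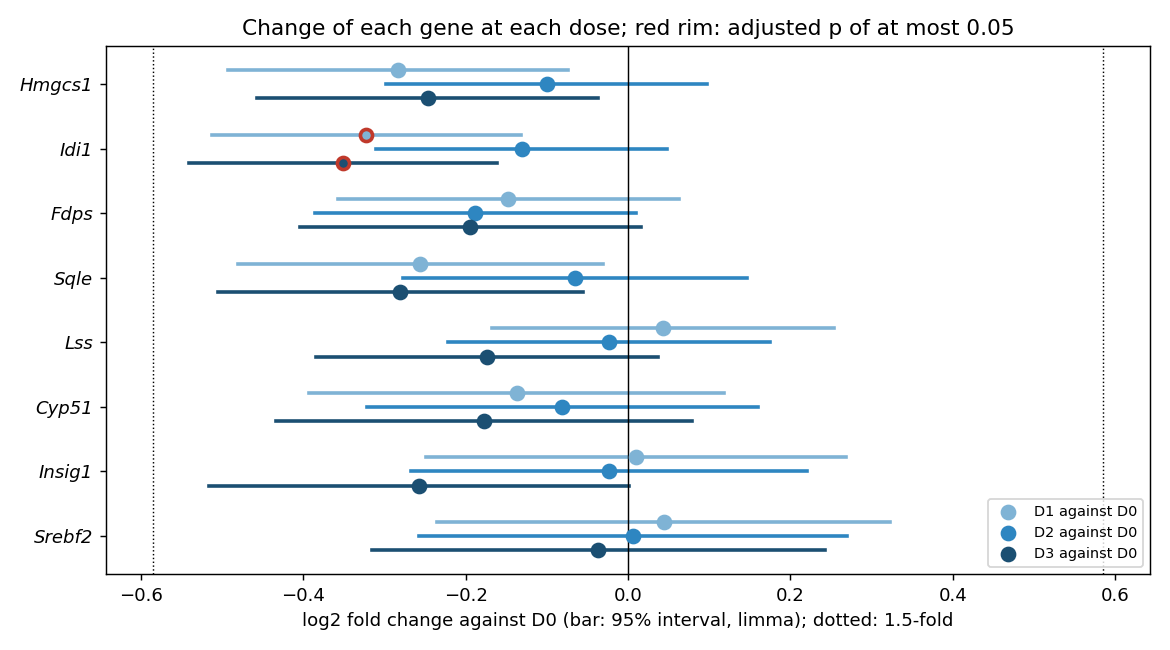
Log2 fold change of each gene against D0 (x axis) at D1, D2 and D3, from 1 limma model over 18 mice. Bars are 95% intervals, dotted lines mark 1.5-fold and a red rim marks an adjusted p of at most 0.05. Idi1 at D1 and D3 has the red rim, and every interval stays inside the dotted lines.

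With loess-normalized ratios and all mice, every 95% interval of a dose against D0 lay inside a 1.5-fold change either way, the widest reach being -0.54 for Idi1 at D3. Intervals were not computed for the other settings, where Idi1 at D3 was -0.43 without D3 mouse 35, and with median centring all 8 differences at D1 were above 0, up to 0.27 for Srebf2. With loess-normalized ratios the median difference of the 8 genes was -0.14 at D1, -0.07 at D2 and -0.22 at D3. The medians over all 30999 probes were 0.01, 0.00 and 0.00, and 90% of all probes lay between -0.38 and 0.35 at D3. With median centring the median of the 8 genes was 0.15, 0.13 and -0.06, beside 0.17, 0.12 and 0.06 over all probes.

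Between doses, no difference of the 8 genes passed the adjusted p. For Hmgcs1, Idi1, Sqle and Cyp51 the D2 mean lay between D0 and both other doses, while the mean of Fdps was lower at each higher dose. For these 4 genes, in that order, D2 minus D1 was 0.18 ± 0.10, 0.19 ± 0.09, 0.19 ± 0.11 and 0.06 ± 0.12 (SE; limma, adjusted p = 0.573, 0.505, 0.590 and 0.927). Insig1 and Lss differed little from D0 at D1 and D2, and their D3 minus D1 values were -0.27 ± 0.13 and -0.22 ± 0.11 (adjusted p = 0.665 and 0.669). None of the 8 genes was called between doses, where 0% of all probes were called for D2 against D1, 0.106% for D3 against D2 and 0.145% for D3 against D1; at an unadjusted p under 0.05 there was 1 of the 8 for D2 against D1, 1 for D3 against D2 and 0 for D3 against D1, where 9.83%, 11.7% and 7.67% of all probes had one. A linear trend over dose was past the adjusted p for 6.56% of all probes and for 0 of the 8 genes. Its steepest fitted change among them was that of Idi1, -0.28 ± 0.10 (SE) from D0 to D3 (limma, adjusted p = 0.115), followed by Insig1 with -0.26 ± 0.12 (adjusted p = 0.197).

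Within slides, comparing only arrays scanned on the same slide, Hmgcs1, Idi1, Fdps and Sqle were lower than D0 on 3 of 3 slides at D1 and at D3. Slide 3 held 1 array per group, and mouse 35 gave the D3 array of slide 3 and one of those on slide 2. At D2 Hmgcs1 and Fdps were lower on 3 of 3 slides, Idi1 on 2 and Sqle on 1. For Idi1 the slide differences ran from -0.48 to -0.25 at D1 and from -0.44 to -0.05 at D3. Lss, Cyp51 and Insig1 were lower on 2 of 3 slides at D3 and Srebf2 on 1 of 3.

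Across the 18 mice, the 8 genes varied together in part. The closest pairs were Lss with Insig1 (Pearson r = 0.72), Fdps with Insig1 (0.70), Hmgcs1 with Idi1 (0.69), Fdps with Cyp51 (0.66) and Hmgcs1 with Sqle (0.66). Of 28 pairs, 27 had r above 0, with a median of 0.36, and with group means removed 23 of 28 were above 0, with a median of 0.28. The values of Srebf2 with the other genes ran from -0.06 with Lss to 0.46 with Hmgcs1. These are descriptions over 18 mice that share slides and a reference, and no test was made.

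**Figure D3:**
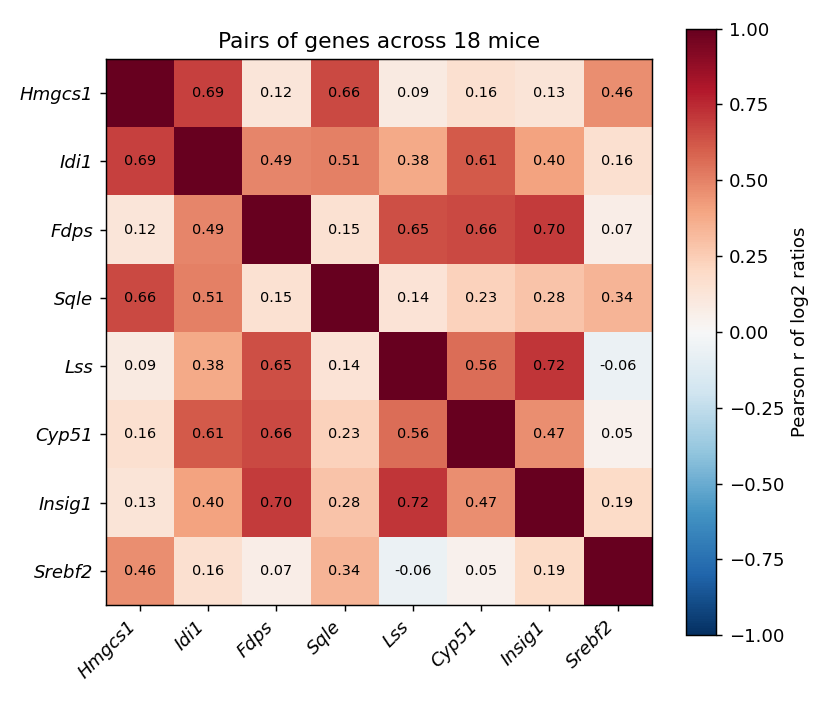
Pearson correlation of log2 ratios across 18 mice for each pair of the 8 genes (rows and columns), on a colour scale from -1 to 1. Fdps, Lss, Cyp51 and Insig1 form one block (0.47 to 0.72; 0.43 to 0.79 with group means removed), Hmgcs1, Idi1 and Sqle another (0.51 to 0.69; 0.03 to 0.43 with group means removed), Idi1 also goes with Cyp51 (0.61), and Srebf2 has its highest value with Hmgcs1 (0.46).

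The genes outside the cholesterol and fatty acid lists that varied most like the mean of the 8 standardized genes included Smarca5-ps (Pearson r = 0.80), Ikzf3 (0.78), Magi3 (0.78) and Capn11 (0.76), over 18 mice. They were picked for a high r among all genes with a tested probe outside those lists. Group means were not removed, and no test of r was made. Smarca5-ps and Capn11 were themselves lower at D3 (-0.54 and -0.31, limma, adjusted p = 0.00848 and 0.0342). Smarca5-ps is a transcribed pseudogene, whose probe may share signal with its parent gene.

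The other genes of the pathway were read from lists by role. With loess-normalized ratios no gene of these 5 lists was called, since none past the adjusted p also reached 1.5-fold. Of all probes, 4.74% passed the adjusted p at D1, 2.09% at D2 and 12.4% at D3. Of 15 further synthesis enzymes, all tested, 0 passed the adjusted p at D1 and D2 (limma) and 1 passed at D3, in the lower direction, with a median difference of -0.02 at D3. That gene was Msmo1, the sterol-C4-methyl oxidase that acts soon after Cyp51, which fell by 0.30 ± 0.09 (SE) at D3 (adjusted p = 0.0270). Msmo1 was no longer past the adjusted p in 5 of 18 fits without 1 mouse (D0 mice 3 and 4, D3 mice 31, 32 and 34), with an adjusted p of up to 0.105. The same held in the red channel alone (adjusted p = 0.0539). Hsd17b7, a sterol reductase of the same pathway named after its values were seen, did not pass by its brightest probe, while its other probe gave -0.26 ± 0.08 (SE) at D3 (adjusted p = 0.0464). Of 7 genes of SREBP processing, 0 passed at any dose, with differences at D3 between -0.16 and 0.12, among them Scap, the escort of SREBP, at 0.10 ± 0.09 (SE; adjusted p = 0.538).

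Of 12 listed genes of cholesterol uptake and transport, 11 were tested. Of these, 1 was higher past the adjusted p at D1 and 2 at D3, where 4.74% and 12.4% of all probes passed. Scarb1, a receptor for high-density lipoprotein, rose by 0.39 ± 0.08 (SE) at D1 (limma, adjusted p = 0.0124) and by 0.34 ± 0.08 at D3 (adjusted p = 0.0123), where its ratio was 0.22, 0.26, 0.24 and 0.22 in the D3 mice against -0.25 to 0.02 in D0. In the red channel alone the differences were 0.41 and 0.32 (adjusted p = 0.0661 and 0.106). The other Scarb1 probe gave 0.49 at D1 (adjusted p = 0.0696), -0.01 at D2 (adjusted p = 0.984) and 0.25 at D3 (adjusted p = 0.307). Lrpap1, a chaperone of lipoprotein receptors, rose by 0.44 ± 0.10 at D3 (adjusted p = 0.00673), and its other probe gave 0.47.

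Of 10 genes of efflux and storage, 1 passed at D1, 0 at D2 and 2 at D3, all lower. The shares of all probes that passed were 4.74%, 2.09% and 12.4%. Soat1, which esterifies cholesterol for storage, fell by 0.43 ± 0.10 (SE) at D1 (limma, adjusted p = 0.0180) and by 0.37 ± 0.10 at D3 (adjusted p = 0.0194). At D1 it was no longer past the adjusted p without D0 mouse 4 or D1 mouse 21 or 24. At D3 it was no longer past it without D0 mouse 4 or D3 mouse 31 or 34. The adjusted p rose to at most 0.0714 in these fits. Nceh1, a hydrolase of cholesteryl esters, fell by 0.30 ± 0.09 at D3 (adjusted p = 0.0377). It was no longer past the adjusted p in 6 of 18 fits without 1 mouse (D0 mice 1, 3 and 5, D3 mice 31, 32 and 34, adjusted p up to 0.110). The same held with the scanner's processed signals (adjusted p = 0.0603). Abca1, the main exporter of cholesterol to apolipoprotein, differed by 0.37 ± 0.15 at D3 (adjusted p = 0.108).

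Of 13 genes of fatty acid synthesis, 0 passed at D1 and D2 and 2 were lower at D3, where 12.4% of all probes passed. Acaca, the acetyl-CoA carboxylase that commits carbon to fatty acids, fell by 0.39 ± 0.12 (SE; limma, adjusted p = 0.0358), while its other probe gave -0.13 (adjusted p = 0.545). Acaca was no longer past the adjusted p in 6 of 18 fits without 1 mouse (D0 mice 1, 2 and 5, D3 mice 31, 32 and 34, adjusted p up to 0.113). Mlxipl, the carbohydrate-responsive factor ChREBP, fell by 0.33 ± 0.09 (adjusted p = 0.0182), its other probe gave 0.11 (adjusted p = 0.737), and the adjusted p was 0.0706 without D3 mouse 35 and 0.0638 in the red channel alone. Acaca and Mlxipl were also past the adjusted p for a linear trend over dose (limma, adjusted p = 0.0339 and 0.0362). With median centring, 0 of the 9 differences past the adjusted p in these 5 lists remained past it. The differences were then 0.64 at D1 and 0.49 at D3 for Scarb1 and 0.63 at D3 for Lrpap1. They were -0.05 for Msmo1, -0.07 for Nceh1, -0.14 for Acaca and -0.15 for Mlxipl at D3, and -0.20 at D1 and -0.26 at D3 for Soat1.

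With slide as a block, which takes out differences between the 3 slides, the 9 differences stayed past the adjusted p and 7 others joined them. The share of all probes past the adjusted p in this fit is not given here. The gain can therefore not be read as particular to these lists. At D1 these were Lrpap1 (0.30, limma, adjusted p = 0.0175) and Cyp27a1, a sterol hydroxylase of the efflux list (0.23, adjusted p = 0.0429). At D2, where no gene of the 5 lists passed without the block, they were Scarb1 (0.24, adjusted p = 0.0489), Nceh1 (-0.31, adjusted p = 0.0395) and Insig2, the relative of Insig1 (0.20, adjusted p = 0.0440). At D3 they were Stard3, a sterol transfer protein (-0.23, adjusted p = 0.0123), and Tm7sf2, a sterol reductase of cholesterol synthesis (0.35, adjusted p = 0.0389). Cyp27a1, Insig2, Stard3 and Tm7sf2 were named after their values were seen.

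**Figure D4:**
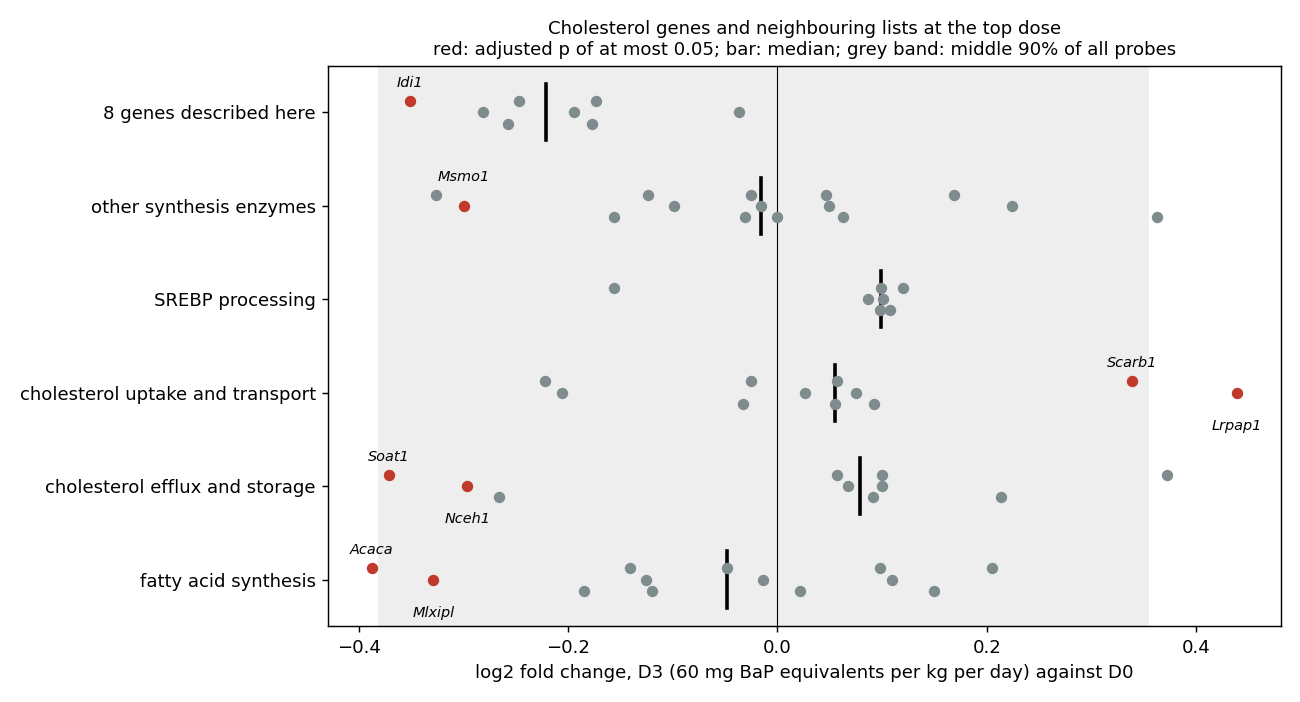
Log2 fold change at D3 against D0 (x axis) of each gene in 6 lists (rows), by its brightest probe. Red points passed an adjusted p of 0.05, black bars are list medians and the grey band holds the middle 90% of all probes. Lrpap1 at 0.44 lies farthest from 0 among the genes plotted, and the 8 genes have a median of -0.22.

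Markers of other cell types also differed between the groups. Their counts past the adjusted p stand beside 4.74% of all probes at D1, 2.09% at D2 and 12.4% at D3. The mean log2 ratio of 4 neutrophil markers ran from 2.20 to 2.94 in D0, from 3.11 to 3.34 in D1, from 2.75 to 3.66 in D2 and from 3.34 to 4.82 in D3, and 4 of 4 rose at D3. Its Pearson r with the mean of the 8 standardized genes was -0.65 over 18 mice. The mean of 8 alveolar type 2 markers ran from 5.05 to 5.58 in D0, from 4.93 to 5.43 in D1, from 5.12 to 5.60 in D2 and from 4.86 to 5.32 in D3, with 1 of 8 lower past the adjusted p at D3, and r was 0.16. The mean of 9 alveolar macrophage markers ran from 3.72 to 4.00 in D0, from 3.56 to 4.11 in D1, from 3.04 to 3.70 in D2 and from 3.39 to 3.58 in D3, with 0 of 9 past the adjusted p at D1 and 2 of 9 lower at D2 and at D3, and r was also 0.16. Of these 9 macrophage markers 7 had a difference below 0 at D3, and the highest difference was 0.94. Of 6 T and NK cell markers 2 were lower past the adjusted p at each dose (r = 0.29). At D3 4 of these 6 had a difference below 0, and the highest was 0.53. Of 4 proliferation markers 4 were higher past the adjusted p at D1, 3 at D2 and 0 at D3 (r = -0.18). For the other 8 marker lists r lay between -0.39 (endothelial) and 0.20 (ciliated). Of their markers, Pecam1 (endothelial) was higher past the adjusted p at D1 (0.67) and D3 (0.66) and Cidec (adipocyte) was lower at D3 (-0.70), and the others did not pass at any dose. The other Cidec probe gave -0.10 at D3 (limma, adjusted p = 0.767). Of the 5 adipocyte markers 2 were below 0 at D3, with a median difference of 0.27. The part of these cell types in the values of the 8 genes was not tested.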

How the data were processed

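Lung RNA of 18 mice on 19 Agilent 2-colour arrays was analysed. The scanner files deposited by the authors give an intensity for each spot, before normalization, and the deposited series table holds log2 ratios that the authors had normalized (used as an alternative). Following the study's methods, no background was subtracted from the median signals, and loess (span 0.3) was applied to each array. Control spots and spots marked as outliers were left out. Spots were averaged to probes and the 2 arrays of mouse 35 to 1 mouse. Testing was limited to probes with red signal well above background in at least 4 mice of 1 group (30999 probes); all 9 probes of the 8 genes passed, with red signal well above background in all 18 mice. The number of arrays limits the precision.

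The tests used limma 3.58.1 (R 4.3.3), in 1 model over 4 groups, with Benjamini-Hochberg adjustment over all tested probes. Calls needed an adjusted p of at most 0.05 and 1.5-fold. The study's own test, MAANOVA, was not installed. The code was tested on simulated data. P-values measure the spread between these mice. The header names Feature Extraction 11.0.1.1.

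The 8 genes and the lists were chosen with earlier results of these data known. Genes are given by their brightest probe. Of the 5 pathway lists, genes past the adjusted p at 1 dose or more were named, up to 6 per list, with genes most like the 8; Scap and Abca1 were added after their values were seen. Some genes are not reported here and were left out of the lists and their counts. Alternatives were other normalizations and filters, the red channel alone, slide as a block, mouse 23 left out or in D1, either array of mouse 35, each mouse left out, the mean of a gene's probes and fits of D0 with 1 dose.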

Additional observations from a re-analysis of the deposited data

Results flagged for a closer look

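In 36 groups of 4 or 5 mice (9 probes in 4 dose groups), 1 mouse stood apart from the rest of its group by Dixon's criterion for 2 probes, both of Srebf2 in D0. D0 mouse 4 had a log2 ratio of -0.35 at the brighter probe, above the other D0 mice at -0.89 to -0.76, and -0.39 at the dimmer probe, above the others at -0.54 to -0.53. Chance marks about 1 in 20 groups.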

How the results depend on the processing

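No gene of the 8 was called with 1.5-fold at any dose, or between doses, under any alternative run. The count past the adjusted p at D1 was 1, Idi1, and 0 with median centring, without a filter on dim probes, with mouse 23 in D1, with array 35.2 of mouse 35 alone and with D0 and D1 fitted alone; leaving out each mouse gave 0 to 1. It was 0 without any one of D0 mice 1, 2, 3, 4 and 5, D1 mice 21, 24 and 25, D2 mice 26, 29 and 30 or D3 mice 31, 32 and 34. At D2 the count was 0 throughout. At D3 it was 1, Idi1, and 0 with median centring and 2 with array 35.2 alone (with Hmgcs1, -0.30, adjusted p = 0.0343); leaving out each mouse gave 1 to 2, the second gene being Sqle without D0 mouse 5 and Hmgcs1 without D3 mouse 35. The trend count was 0 and ranged from 0 to 1 over the left-out mice (Idi1 without D1 mouse 24). Median centring reversed Idi1 at D1 to 0.0062. Over all probes, 12, 18 and 98 passed the adjusted p at D1, D2 and D3 with median centring, against 1468, 647 and 3843 with loess. Of 744 recomputed differences, 46 changed sign, 45 of them in genes past no threshold; the cause was not tested. Slide as a block changed none of the counts of the 8 genes past the adjusted p, and with it 6 of the 8 were lower at D1 in place of 5, Insig1 going from 0.01 to -0.01. No paired analysis was possible because the groups share no mouse numbers that could pair single mice.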
